A study of Mus musculus with 6 samples.

Results

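Genes of the pancreatic duct and of the trunk epithelium, the inner part of the branching epithelium from which ducts and endocrine progenitors arise, were examined in whole embryonic pancreases with and without Jarid2. The 9 genes were *Sox9*, *Onecut1*, *Krt19*, *Krt7*, *Spp1*, *Glis3*, *Cftr*, *Muc1* and *Car2*, a list of known duct and trunk genes. Its rule uses no measured value, but the list was chosen with earlier results of these data known. All array probe sets annotated to 1 of these genes alone were used. This gave 12 probe sets for 8 of the 9 genes, out of 18194 genes and 45101 probe sets on the arrays. *Spp1* was not analysed here. Of the 8 genes, 7 had a brightest probe set above the floor of 16 on all 6 arrays, and *Cftr* did not.

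The samples were whole pancreases of C57BL/6 mouse embryos at e15.5, 3 labelled wild-type (Jarid2WT) and 3 labelled Jarid2 knock-out (Jarid2Δpanc), with 1 array each. In Jarid2Δpanc embryos, Cre recombinase under the *Pdx1* promoter deletes a loxP-flanked exon of *Jarid2* (Pdx1-Cre;Jarid2 flox/flox) from pancreatic progenitors. According to the study, recombination in the epithelium was mosaic and left out some cells of the trunk and tip areas, and mesenchyme is not targeted. Whether the Jarid2WT embryos carried Cre or floxed alleles is not given in the sources used here. The deposited values are array intensities scaled to the same trimmed mean on each array, called signals here, and were compared on a log2 scale with limma and Benjamini-Hochberg adjustment over all 18194 genes. The study speaks of control littermates at e15.5, but the labels only number the embryos of each group and do not name litters. The p-values set the difference between groups against the spread of these embryos within a group, taken as independent. Whether some were littermates could thus not be taken into account. SE stands for the standard error of a log2 fold change, which is always Jarid2Δpanc minus Jarid2WT.

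The samples differed in ways other than the genotype. The brightest *Jarid2* probe set had 301 to 415 in Jarid2WT and 355 to 398 in Jarid2Δpanc. Whether it covers the deleted exon was not tested, so that it does not check the labels. By qRT-PCR of the deleted exon, the study reports less *Jarid2* RNA in Jarid2Δpanc than in control pancreases at e15.5. Whether these 6 samples were among those is not given in the sources used here. Jarid2WT replicate 3 stood apart by skeletal muscle genes, with a summed signal of 15651 over 10 muscle genes against 267 to 371 in the other 5 samples. *Xist* and the Y-linked *Eif2s3y* set Jarid2WT replicates 1 and 2 apart from the other 4 samples, so that sex and genotype are partly confounded. Without Jarid2WT replicate 3, the log2 fold changes of *Sox9*, *Onecut1*, *Glis3*, *Krt7*, *Krt19*, *Muc1* and *Car2* were 0.16, 0.10, -0.22, 0.19, -0.05, -0.11 and -0.28. With that sample as the only control, which has the same *Xist* and *Eif2s3y* pattern as the Jarid2Δpanc samples, the values in the same order were 0.27, 0.06, -0.18, 0.32, -0.14, -0.08 and 0.06, with no test, so that *Car2* turned in sign. 1 GEO label speaks of islets and glucose, and embryonic pancreas, which the other labels and the study give, was followed.

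Jarid2 is an accessory subunit of Polycomb repressive complex 2, which methylates histone H3 and is known to act mostly at CpG-rich promoters. In the developing pancreas, the transcription factors Sox9, Onecut1 (HNF6) and Glis3 maintain the trunk epithelium and act upstream of both ducts and *Neurog3*-expressing endocrine progenitors. Differentiated ducts are lined by a simple epithelium with keratins 7 and 19 and the mucin Muc1 at the apical surface, and secrete bicarbonate with the help of the chloride channel Cftr and carbonic anhydrase 2. None of these genes is restricted to ducts. Keratins 7 and 19 are also made by mesothelium, and carbonic anhydrase 2 by red cell precursors.

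Promoter windows were available from RefSeq (GRCm38.p6) for 6 of the 9 genes, in 7 windows. The 250 bases before the start of transcription are shown for the keratin gene *Krt7*, whose groups did not overlap, for the factor gene *Onecut1*, and for the apical mucin gene *Muc1*, with CpG dinucleotides in capitals.
*Krt7* (GRCm38.p6, chr15:101412153-101412402, plus strand): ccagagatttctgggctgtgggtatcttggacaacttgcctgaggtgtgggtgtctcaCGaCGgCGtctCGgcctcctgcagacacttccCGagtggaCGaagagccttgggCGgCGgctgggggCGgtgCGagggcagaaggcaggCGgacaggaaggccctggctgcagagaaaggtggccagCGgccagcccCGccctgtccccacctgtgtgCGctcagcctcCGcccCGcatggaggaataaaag
*Onecut1* (GRCm38.p6, chr9:74861671-74861920, plus strand): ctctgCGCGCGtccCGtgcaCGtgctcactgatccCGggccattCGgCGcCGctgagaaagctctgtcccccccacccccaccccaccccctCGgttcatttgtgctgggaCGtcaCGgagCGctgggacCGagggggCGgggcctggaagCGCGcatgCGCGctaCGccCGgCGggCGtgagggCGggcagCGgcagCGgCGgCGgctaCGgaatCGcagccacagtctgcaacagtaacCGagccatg
*Muc1* (GRCm38.p6, chr3:89228806-89229055, plus strand): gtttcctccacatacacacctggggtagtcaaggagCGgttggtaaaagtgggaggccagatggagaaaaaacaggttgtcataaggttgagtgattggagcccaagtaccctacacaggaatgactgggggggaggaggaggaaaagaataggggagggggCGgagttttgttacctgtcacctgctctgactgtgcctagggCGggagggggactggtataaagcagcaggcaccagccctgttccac
The windows of these duct genes differ in CpG content. There were 31 CpG dinucleotides before *Onecut1*, 16 before *Krt7* and 3 before *Muc1*, against a median of 6 over 32851 promoter windows. The windows of *Cftr* and *Glis3* held 30 and 24, and both windows of *Spp1* held 3. The binding motif letters AACAAT (SOX factors) and ATCAAT (ONECUT factors) were searched on both strands. They were found in 0 of the 7 windows, whereas 9.42% and 6.72% of all windows hold them. Of the motifs searched, the remaining one, GTTAAT, was found in 1 of the 7, that of *Spp1*, and in 6.43% of all windows. This says only which letters these windows hold.

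For the 3 trunk factor genes the groups overlapped in all probe sets, and none passed adjustment. *Sox9*, the defining factor of trunk and duct cells, had signals of 275, 233 and 234 in Jarid2WT replicates 1 to 3 and 268, 320 and 262 in Jarid2Δpanc replicates 1 to 3. The groups overlapped through Jarid2WT replicate 1 alone. The means were 247 ± 24.0 (SD, n = 3) and 283 ± 31.9 (SD, n = 3), a log2 fold change of 0.19 (SE 0.11, limma adjusted p = 0.743). The 95% interval ran from -0.10 to 0.49. In whole pancreases, a change in the number of cells of a type and a change in RNA per cell cannot be told apart. By immunofluorescence at e15.5, which reads protein, the study describes the distribution of Sox9 cells as normal. A further bright probe set of *Sox9* had 249, 216 and 211 in Jarid2WT and 199, 303 and 275 in Jarid2Δpanc, a log2 fold change of 0.18. Its groups overlapped as well, with the lowest and the highest reading both in Jarid2Δpanc. The remaining *Sox9* probe set was dim, with 15 to 33 in Jarid2WT and 13 to 28 in Jarid2Δpanc.

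*Onecut1*, which encodes HNF6, was read by a pair of probe sets that gave different sizes. The brighter had 174, 147 and 164 in Jarid2WT and 154, 195 and 167 in Jarid2Δpanc, a log2 fold change of 0.09 (SE 0.11, limma adjusted p = 0.899). The other had 129, 82 and 82 in Jarid2WT and 117, 164 and 126 in Jarid2Δpanc, a log2 fold change of 0.49 (SE 0.25, limma adjusted p = 0.723 over 34958 probe sets). In both, the groups overlapped and Jarid2WT replicate 1 was the highest control. The interval of the dimmer probe set, from -0.16 to 1.15, includes both 0 and more than 1, which is a doubling.

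*Glis3*, a zinc finger gene needed for ducts and β-cells, had 135, 110 and 119 in Jarid2WT and 113, 86 and 119 in Jarid2Δpanc. The log2 fold change was -0.20 (SE 0.16, limma adjusted p = 0.817), and without Jarid2Δpanc replicate 2 it was -0.06. That sample was the lowest of the 6 for *Glis3* and the highest for both *Sox9* and *Onecut1*. Among 9959 other genes with a mean signal of at least 64, the profiles nearest to *Sox9* over the 6 samples were those of *Atp11b*, *Kntc1* and *Rgs16*. Their root mean square differences from it were 0.03, 0.03 and 0.04 on the log2 scale after centring. They are the closest of many genes over only 6 samples, and shared regulation with *Sox9* was not tested.

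The log2 fold changes of the pair of duct keratins had opposite signs, and neither passed adjustment. *Krt7* had signals of 575, 510 and 497 in Jarid2WT and 604, 604 and 648 in Jarid2Δpanc. All 3 Jarid2Δpanc pancreases lay above all 3 controls, which held for 1 of the 8 genes and for 5.71% of all genes. The means were 527 ± 41.8 (SD, n = 3) and 619 ± 25.4 (SD, n = 3), or 1.17 times the control level with a 95% interval from 1.04 to 1.33. The log2 fold change was 0.23 (SE 0.07, limma adjusted p = 0.455). The unadjusted p of 0.0227 from limma was under 0.05, as for 4.36% of all genes in this direction, and without Jarid2WT replicate 2, Jarid2WT replicate 3 or Jarid2Δpanc replicate 3 it was 0.0723, 0.0646 and 0.0701. *Krt19* had 408, 364 and 411 in Jarid2WT and 399, 363 and 359 in Jarid2Δpanc, with overlapping groups. Its log2 fold change was -0.08 (SE 0.07, limma adjusted p = 0.817), and the interval from -0.26 to 0.11 was the narrowest but 1 among the 7 genes above the floor.

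Mesothelial genes were also at higher mean signals in Jarid2Δpanc, and their part in the *Krt7* values was not tested. Of 6 mesothelial markers other than keratins, 5 had a positive log2 fold change, and none passed. The uroplakin gene *Upk3b*, the brightest, had 225, 241 and 199 in Jarid2WT and 342, 347 and 215 in Jarid2Δpanc. The summed signal of the 6 markers was 578 to 644 in Jarid2WT and 918, 791 and 590 in Jarid2Δpanc replicates 1 to 3. *Krt7* was highest in Jarid2Δpanc replicate 3, where this sum was the lowest of the 3. *Msln*, a defining marker, was at 3 to 27 in all samples and thus near the floor.

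**Figure D1:**
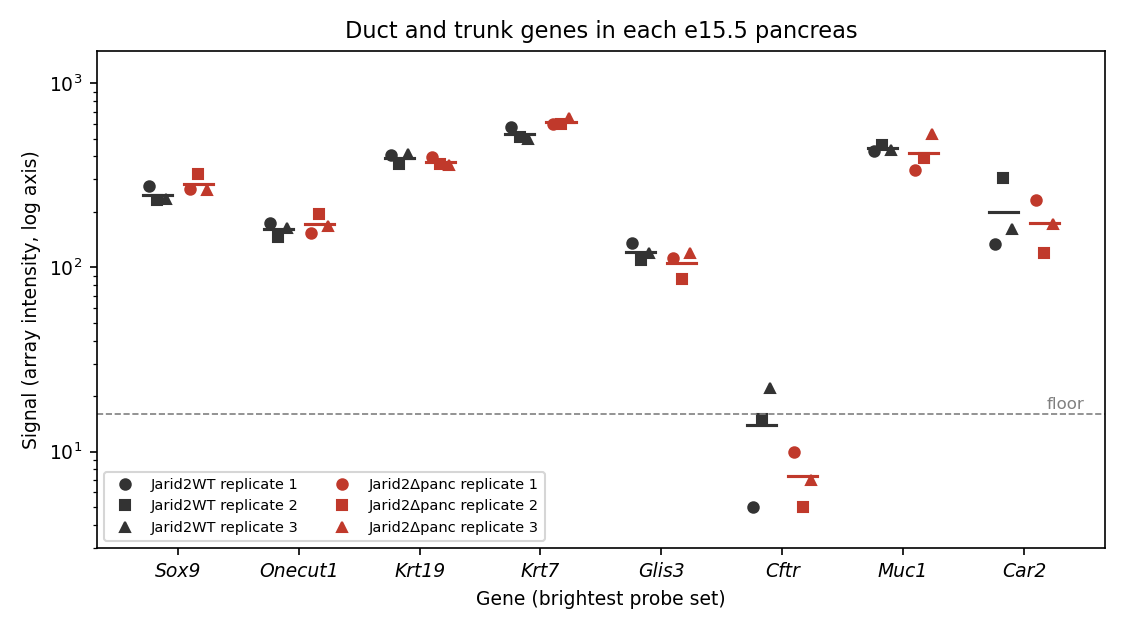
Signals of 8 duct and trunk genes (horizontal axis) in each sample (vertical axis, array intensity, log axis), dark for Jarid2WT and red for Jarid2Δpanc, with the symbol giving the replicate and short lines the group means. The Jarid2Δpanc points lie above all controls for *Krt7* at 604 to 648, and *Cftr* lies mostly under the dashed floor of 16.

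The apical and secretory genes *Muc1* and *Car2* had the highest SEs of the 7 genes above the floor. *Muc1*, a membrane mucin that lines the duct lumen, had 431, 461 and 435 in Jarid2WT and 338, 394 and 528 in Jarid2Δpanc. The Jarid2Δpanc samples lay on both sides of the controls, with an SD of 97.6 against 16.3 in Jarid2WT. The log2 fold change was -0.10 (SE 0.18, limma adjusted p = 0.950). The value depended on Jarid2Δpanc replicate 3, as without it the log2 fold change was -0.28 (adjusted p = 0.518 from limma) and both remaining samples lay below every control.

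*Car2*, the carbonic anhydrase that supplies bicarbonate, had 134, 307 and 161 in Jarid2WT and 231, 119 and 171 in Jarid2Δpanc. The highest reading was a control and the lowest a Jarid2Δpanc sample, and among the other 4 both controls lay below both Jarid2Δpanc samples. The log2 fold change was -0.16 (SE 0.43, limma adjusted p = 0.998). Its interval from -1.29 to 0.96 was the widest of the 7 genes, and without Jarid2WT replicate 2 the log2 fold change was 0.19. Of 10 measured red cell genes, 3 had their highest pair of readings in Jarid2WT replicate 2 and Jarid2Δpanc replicate 1, as *Car2* did. The share of all genes with this pair was not counted. *Slc4a1*, the red cell anion exchanger, was chosen after its values were seen. It had 70, 204 and 116 in Jarid2WT and 157, 73 and 123 in Jarid2Δpanc. The embryonic globin *Hbb-y*, the brightest of the 10, had 4864, 2292 and 7319 in Jarid2WT and 4279, 3965 and 4734 in Jarid2Δpanc. It was lowest where *Car2* was highest. The summed signal of the 10 genes was 4121 to 9580 in Jarid2WT and 5572 to 6910 in Jarid2Δpanc, and their part in the *Car2* values was not tested.

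**Figure D2:**
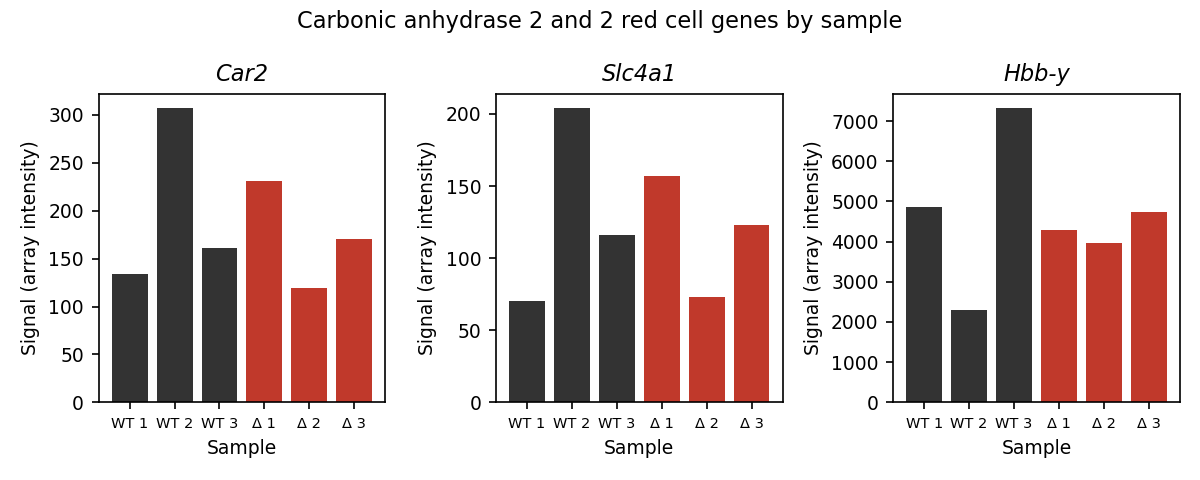
Signals (vertical axes, array intensity from 0) of *Car2* and of the red cell genes *Slc4a1* and *Hbb-y* in the 6 samples (horizontal axes), dark for Jarid2WT and red for Jarid2Δpanc (Δ). *Car2* and *Slc4a1* share their highest sample, Jarid2WT replicate 2 at 307 and 204, and *Hbb-y* is lowest there at 2292. *Slc4a1* was chosen after its values were seen.

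*Cftr*, the chloride channel of the apical duct membrane, could not be compared. Its brighter probe set had 5, 15 and 22 in Jarid2WT and 10, 5 and 7 in Jarid2Δpanc, and the other was at 1 to 8 on all arrays. With 5 of 6 readings under the floor of 16 in the brighter probe set and all 6 in the other, no fold change is given.

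After adjustment by limma, 0 of the 8 genes passed the threshold of 0.05 downward and 0 upward. The same held for all 18194 genes, with 0% in either direction. *Iapp* and *Ins2*, at log2 fold changes of -1.10 and -1.05, did not pass either (limma adjusted p = 0.218 and 0.231). The study, which names RMA, reports significantly downregulated genes from these arrays, with *Iapp* and *Ins2* among them. Not passing therefore does not set the duct genes apart from genes that the study found lower. Without adjustment, 0 of the 8 lay under 0.05 downward and 1 upward, against 807 (4.44%) and 793 (4.36%) of all genes. In 0 of the 8 did every Jarid2Δpanc sample lie below every control, against 5.66% of all genes. Among the 12 probe sets, 0 passed after adjustment and 1, that of *Krt7*, had every Jarid2Δpanc sample above every control. The shares over all 34958 probe sets were 0.00286% and 6.12%, and 4.61% lay below, where 0 of the 12 did. Of the 7 genes above the floor, 4 had a negative and 3 a positive log2 fold change. The median over the 8 was -0.09, and over all genes 0. For the brightest probe set of each gene, the 95% intervals of 6 of the 7, all but *Car2*, lay within 1 log2 unit of 0. Those of the dimmer *Onecut1* probe set and of the dim *Sox9* probe set reached 1.15 and 1.09. An interval within 1 log2 unit of 0 does not show that levels were equal.

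**Figure D3:**
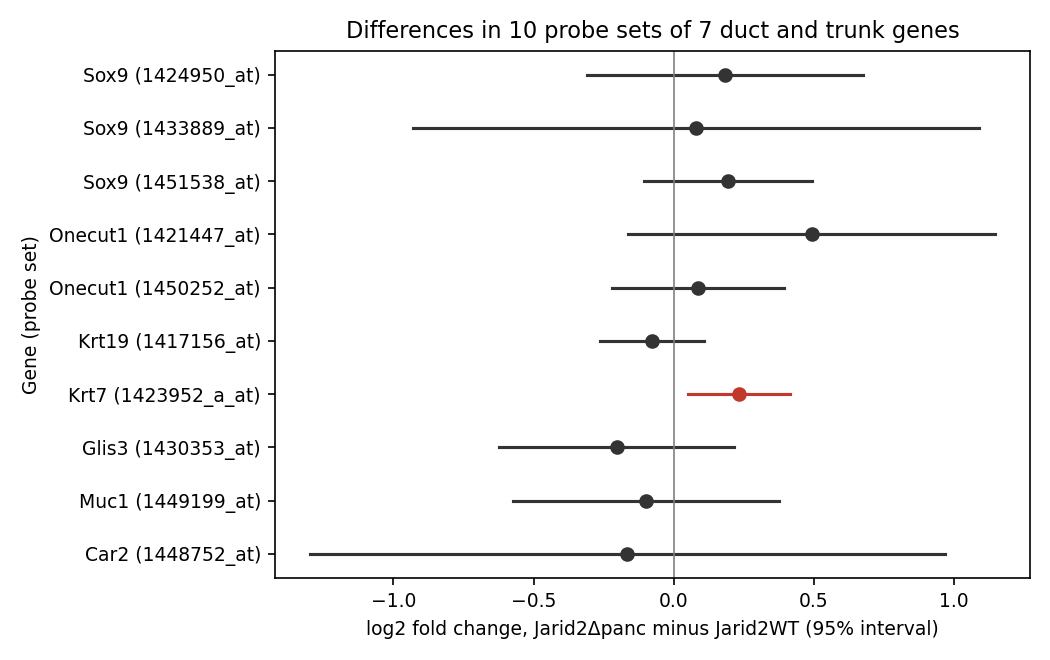
Log2 fold changes, Jarid2Δpanc minus Jarid2WT (horizontal axis), with 95% intervals from limma for the 10 probe sets of 7 duct and trunk genes (vertical axis) with at most 2 arrays under the floor. The interval lies above 0 for *Krt7* (red) and crosses 0 for the other 9, and no probe set shown passed after adjustment.

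A wider list of duct, trunk and epithelial genes held 64 others, of which 58 were measured. After adjustment by limma, 0 passed. Without adjustment, 8 lay under 0.05 downward and 3 upward, or 13.8% and 5.17%, against 4.44% and 4.36% of all genes, and their median log2 fold change was 0.01. With genes of a mean signal under 64 left out, 5 of those remaining were downward, and with a floor of 1 in place of 16, 3 were. The shares over all genes under these settings were not counted, so that these counts cannot be set against 4.44%. All Jarid2Δpanc samples lay below all controls in 9 of the 58 and above in 3, against 5.66% and 5.71% of all genes.

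Among the other trunk and duct factors, *Prox1* and *Ehf* lay on opposite sides. *Prox1*, a homeobox gene of the early pancreatic epithelium, had 212, 139 and 171 in Jarid2WT and 258, 278 and 234 in Jarid2Δpanc, a log2 fold change of 0.58 (SE 0.18, limma adjusted p = 0.473). *Ehf*, an epithelial ETS factor gene, had 329, 289 and 283 in Jarid2WT and 263, 247 and 263 in Jarid2Δpanc, a log2 fold change of -0.22 (SE 0.07). The groups did not overlap in either. *Hes1*, the Notch effector gene of trunk cells, had 0.19 (SE 0.10), and the groups overlapped. The brightest factor genes, *Bicc1*, *Tead2* and *Gata6*, had log2 fold changes of 0.07, 0.09 and -0.12, with 0.29 for *Gata6* when all its probe sets were averaged.

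The genes of ion transport and of cilia gave values in both directions. *Ano1*, a calcium-activated chloride channel gene, had 346, 422 and 426 in Jarid2WT and 476, 535 and 532 in Jarid2Δpanc, a log2 fold change of 0.37 (SE 0.11), but -0.03 with all its probe sets averaged. The sodium, potassium and chloride cotransporter gene *Slc12a2* had 777, 810 and 844 in Jarid2WT and 714, 729 and 738 in Jarid2Δpanc, a log2 fold change of -0.16 (SE 0.04), but 0.30 with all its probe sets averaged. Of the brightest transport genes, the sodium pump subunit gene *Atp1b1* had 0.06 (SE 0.12), or -0.07 with all its probe sets averaged, and the scaffold gene *Slc9a3r1* had 0.23 (SE 0.10), or 0.07 averaged in the same way, both with overlapping groups. *Pkhd1*, which encodes fibrocystin of the primary cilium and is mutated in recessive polycystic kidney disease, had 131, 132 and 137 in Jarid2WT and 106, 119 and 110 in Jarid2Δpanc. Its log2 fold change was -0.26 (SE 0.05, limma adjusted p = 0.310), with every Jarid2Δpanc sample below every control. *Dcdc2a*, a gene of the ciliary axoneme, had -0.24 (SE 0.07) and also no overlap, whereas *Ift88*, a gene of intraflagellar transport, had 0.13 (SE 0.08).

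Of the secreted and apical genes, several of the brightest had lower signals in Jarid2Δpanc. Clusterin (*Clu*), a secreted chaperone, had 4983, 5544 and 4547 in Jarid2WT and 3891, 4165 and 3895 in Jarid2Δpanc, a log2 fold change of -0.33 (SE 0.08, limma adjusted p = 0.401). *Ambp*, which encodes a precursor of a plasma protease inhibitor, had -0.25 (SE 0.08), and the trefoil factor *Tff2* had -0.92 (SE 0.20) at signals of 73 to 98 in Jarid2WT and 37 to 54 in Jarid2Δpanc. With *Tff2*, which is also made by stomach, signals raised to a floor of 64 gave -0.35. The Jarid2Δpanc samples lay below all controls for these 3 and for *Prom1*, an apical membrane gene. This held for 4 of the 11 measured genes of this group, against 5.66% of all genes. The median log2 fold change of the 11 was -0.10, and 4 of them had a positive value. *Anxa2*, a membrane-binding annexin gene, had 0.04, and -0.0057 with median centring. Within the simple epithelium, the adhesion genes *Cdh1* and *Epcam* and the keratin gene *Krt8* had log2 fold changes of -0.10, -0.08 and -0.13, with overlapping groups. The claudin genes of tight junctions stood apart from each other, with *Cldn3* at -0.20 (SE 0.06) and *Cldn6* at 0.35 (SE 0.11) and no overlap of the groups in either.

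Acinar and endocrine markers had lower mean signals in the same Jarid2Δpanc samples. Relative to the mean of the controls, the mean log2 signal of the 7 duct and trunk genes was -0.05 to 0.04 in the Jarid2WT samples and 0.01, -0.08 and 0.06 in Jarid2Δpanc replicates 1 to 3. For 12 acinar markers the Jarid2Δpanc samples were at -0.74, -0.75 and -0.75, and for 11 endocrine markers at -0.67, -0.48 and -0.46. These list means overlapped between the groups for the duct genes and not for the acinar or endocrine markers. Gene by gene, every Jarid2Δpanc sample lay below every control in 8 of the 12 acinar and 7 of the 11 endocrine markers. The share over all genes was 5.66%. Both marker lists were chosen with earlier results of these data known. They hold genes that the study names as downregulated on these arrays, such as *Cela1*, *Prss2*, *Ins2* and *Iapp*. Their counts are thus no independent contrast to the duct genes. Log2 fold changes ran from -2.12 to -0.07 for acinar and from -1.10 to -0.12 for endocrine markers. The brightest acinar markers, *Ctrb1* and *Pnliprp1*, were at -0.07 and -0.14 with overlapping groups. The difference between the lists was not tested. Macrophage markers summed to 2303 to 3239 in Jarid2WT and 2752 to 4253 in Jarid2Δpanc, mesenchymal markers to 24464 to 30943 and 27322 to 31937, endothelial markers to 1433 to 1542 and 1458 to 1671, and those of stomach and gut to 283 to 347 and 294 to 360. These sums overlapped between the groups in each list.

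**Figure D4:**
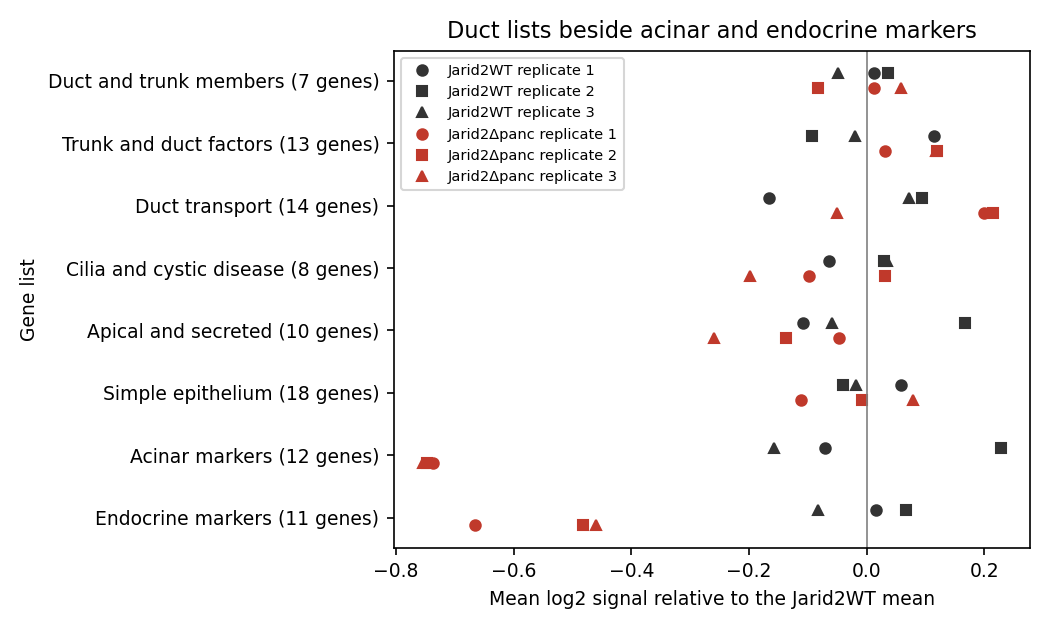
Mean log2 signal of 8 gene lists (vertical axis) in each sample relative to the Jarid2WT mean (horizontal axis, log2 units), dark for Jarid2WT and red for Jarid2Δpanc, for genes with a mean signal of at least 16. The duct and trunk genes lie between -0.08 and 0.06 in Jarid2Δpanc, whereas the acinar markers lie near -0.75. The lists were chosen with earlier results of these data known.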

How the data were processed

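The authors hybridized RNA of 6 pancreases, amplified through 2 cDNA cycles from 50 ng, to Affymetrix Mouse Genome 430 2.0 arrays. The deposited values are linear intensities with a 2% trimmed mean of 150 on each array, and the submitters' processing notes name MAS5 (version not given in the sources used here). The study's methods name RMA and LIMMA, and RMA values and scanner files were not used here. The depth is not counted, and the number of arrays limits the precision. Between 26.5% and 29% of signals per array lay under 16. They were raised to 16 before log2 transformation. Of 45101 probe sets, 34958 had 1 gene symbol in the platform annotation, 932 had several and 9211 were unnamed. Each of 18194 genes was represented by its brightest probe set on average. The main test was limma 3.58.1 under R 4.3.3, using 2 group means, with Benjamini-Hochberg adjustment over all genes, or over all 34958 probe sets for single probe sets, and it was tested on simulated data.

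The members and gene lists were chosen with earlier results of these data known, so that no list was tested. The genes named were the 9 members, *Jarid2* and the 3 nearest to *Sox9*. From each duct, trunk or epithelial list came those passing adjustment or otherwise the 3 brightest and the 3 of lowest unadjusted p. The 2 brightest of each marker list were added where used. The measured genes *Xist*, *Eif2s3y*, *Msln*, *Slc4a1* and *Prom1* were named outside this rule, *Slc4a1* and *Prom1* after their values were seen. Alternatives left out single samples, changed the normalization, floor, filters, probe set choice or variance model, or added the replicate number as a block.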

Additional observations from a re-analysis of the deposited data

How the results depend on the processing

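Of the 8 duct and trunk genes, 0 passed adjustment by limma in either direction under all 18 alternatives in which the count was made. *Sox9* (0.10 to 0.27), *Krt7* (0.18 to 0.32), *Krt19* (-0.14 to -0.05) and *Glis3* (-0.29 to -0.06) kept their direction in all 18 that gave them a value. The unadjusted limma p of *Krt7* was 0.0540 to 0.0748 without Jarid2WT replicate 2 or 3 or Jarid2Δpanc replicate 3, with the block, median centring, a floor of 1, or genes at the floor on all arrays left out. *Onecut1* ranged from -0.0081 to 0.16 with single samples left out and reversed without Jarid2Δpanc replicate 2, *Muc1* ranged from -0.28 to 0.045 and reversed without Jarid2Δpanc replicate 1, and *Car2* ranged from -0.41 to 0.19 and reversed without Jarid2WT replicate 2 or Jarid2Δpanc replicate 2 (0.08). The dim *Sox9* probe set ranged from -0.12 to 0.40 and was at -0.015 with a floor of 32. *Tead2* ranged from -0.056 to 0.17 and *Atp1b1* from -0.018 to 0.17. With all probe sets of a gene averaged, *Atp1b1* was at -0.070, *Gata6* at 0.29, *Slc12a2* at 0.30 and *Ano1* at -0.027, and with median centring *Anxa2* was at -0.0057. With Jarid2WT replicate 3 as the only control, *Car2* was at 0.06, *Bicc1* at -0.01, *Tead2* at -0.04 and *Gata6* at 0.02, each of opposite sign. *Tff2* was at -0.35 with a floor of 64, which lies above its signals in Jarid2Δpanc. The other causes were not tested.

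Over all genes, the count past adjustment by limma was 2 lower and 1 higher after quantile normalization, 3 lower with dim genes (mean signal under 64) left out, and 0 to 8 lower and 0 to 4 higher with single samples left out. The 58 other duct, trunk and epithelial genes had 8 lower and 3 higher without adjustment. This became 3 lower with a floor of 1, 5 lower with genes at the floor on all arrays left out, 5 lower with dim genes left out, and 5 to 7 lower and 1 to 4 higher with single samples left out. The shares over all genes without adjustment were not counted under these settings. Deviations of same-numbered samples from their group means correlated at -0.02, -0.01 and -0.02 over 16767 genes. Samples of different numbers gave -0.02 to 0.03. With 3 samples per group, these values cannot decide whether the numbers mark litters or batches. With the replicate number as a block, *Krt7* kept 0.23 with an unadjusted limma p of 0.0748, and 0 members and 0 genes passed adjustment.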
